A study of Drosophila melanogaster with 46 samples.

Results

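The regions described here are the larval CTCF binding peaks that carried CP190 and no peak of Pita or Su(Hw). CTCF, like Pita and Su(Hw), binds DNA through clusters of C2H2 zinc fingers, and CP190 is a partner protein that such factors bring to chromatin. A larval CTCF peak was taken when it overlapped a larval CP190 peak by at least 1 bp and overlapped no larval Pita or Su(Hw) peak. This gave 267 of the 808 larval CTCF peaks on chromosomes 2L, 2R, 3L, 3R, 4, X and Y. Of the other larval CTCF peaks, 260 also lacked Pita and Su(Hw) but had no CP190 peak, 216 had CP190 together with Pita or Su(Hw), and 65 had Pita or Su(Hw) without CP190. The regions were thus chosen by the larval peak calls of all 4 proteins, and they are 50.7% of the CTCF-only peaks by the rule itself, which is not a result.

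Chromatin from whole Drosophila melanogaster was immunoprecipitated and sequenced (ChIP-seq), and the labels describe 46 samples in 15 groups, all of strain y1w1118. The wild-type groups carry the genotype dCTCFwt and are, for larvae, 4 samples of CTCF, 4 of CP190, 2 of Pita and 2 of Su(Hw), with 2 adult samples for each of the 3 C2H2 proteins. CTCF was precipitated through an HA tag, so its peaks are those of the tagged protein. A further 28 samples are from larvae that carry dCTCFdeltaCP alone or with PitadeltaCP1, SuHwdelta114 or both, altered in domains that bind CP190, and no list used here is named for them. The larval protocol names the third instar, and the sex of the animals and the number pooled are not given in the sources used here. Whole animals mix many cell types, so a peak in these lists is not tied to a tissue.

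The files are 7 deposited peak lists, each in the layout of a comparison between 2 input lists, and every peak has 1 fold enrichment over a control that is not named. Replicates could not be set against each other, and read depth is unknown. The CP190 list names larvae but no genotype, and mutants make up 14 of the 18 samples for that protein, so its peaks may in part come from mutants. The labels give a rabbit antibody to CP190 for the wild type and a rat one for the mutants, so a CP190 fold may rest on either. Peaks are the unit of every test below, and p-values describe these lists and not the spread between animals. All positions are on dm6.

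CTCF of flies, like its vertebrate relative, recognises DNA through its zinc fingers and is known for its place at chromatin boundaries, including those of the bithorax complex. CP190 has a BTB domain and does not select long DNA sites on its own, and it is found at insulators and at many promoters. An interaction domain of CTCF binds CP190, and the series title names recruitment of CP190 by cooperating C2H2 proteins as its subject. Regions with CTCF and CP190 but without the other C2H2 proteins are those where no larval Pita or Su(Hw) peak accompanies this pair.

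The 267 regions covered a wide range of CTCF enrichment. Their median CTCF fold was 38.8, with quartiles of 8.90 and 77.9, a lowest value of 1.78 and a highest of 174. The 260 CTCF-only peaks without CP190 had a median of 3.06 and quartiles of 2.46 and 5.37. The 216 CTCF peaks with CP190 and another C2H2 protein had a median of 15.8 and quartiles of 3.23 and 58.4. Folds of 50 or more were found at 118 of the 267 regions (44.2%) and at 9 of the 260 without CP190 (3.46%). Folds under 5 were found at 48 of the 267 and at 189 of the 260 (72.7%). The 2 CTCF-only classes thus overlapped over nearly the whole range, with most peaks without CP190 at its lower end. The highest CTCF fold of the list, 184, was nevertheless at a CTCF-only peak without CP190. The 65 peaks with Pita or Su(Hw) but no CP190 had a median of 5.87 and quartiles of 2.71 and 94.7. The regions, which are 267 of the 808 larval CTCF peaks, held 45 of the 100 highest CTCF folds of the list. They were also wide, with a median width of 1288 bp against 452 bp for CTCF-only peaks without CP190.

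**Figure D1:**
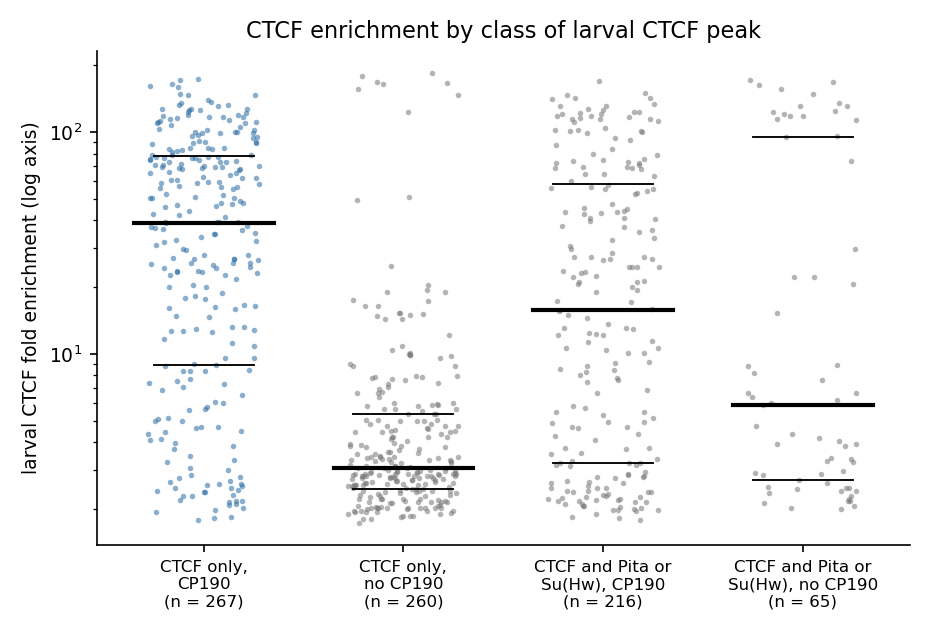
Larval CTCF fold enrichment (log axis) of every larval CTCF peak, in 4 classes by CP190 and by Pita or Su(Hw). Each point is a peak, thick lines are medians and thin lines quartiles. The CTCF-only peaks with CP190 have a median of 38.8 and those without CP190 a median of 3.06.

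The 2 input lists gave most regions nearly the same CTCF value. The ratio of −log10 p in input 2 to that in input 1 had a median of 1.001 and ran from 0.630 to 1.55, and 241 of the 267 regions were within 1.2 times. CTCF summits of the inputs lay a median of 5 bp apart, and 12 bp at the upper quartile, with 461 bp as the largest distance. For the CP190 peaks of these regions the ratio of −log10 p ran from 0.662 to 1.46 with a median of 1.01. The sources used here do not say which samples made each input, so this closeness is not a replicate error. The larval CTCF list also ends at an irreproducible discovery rate of 0.0098 between the inputs. Agreement between them was therefore in part a condition for being in the list.

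CP190 and CTCF summits lay close together at most of these regions. The rule required the 2 peaks to overlap, so some closeness was set in advance, and no other class was compared. The CP190 summit lay a median of 17 bp from the CTCF summit (quartiles 7.5 and 40 bp). It was within 10 bp at 89 regions (33.3%), within 50 bp at 207 (77.5%) and within 200 bp at 247 (92.5%). The CP190 summit was at the higher coordinate in 140 regions, at the lower in 117 and at the same base in 10. The CP190 peak, with a median width of 757 bp, lay wholly inside the CTCF peak at 186 regions and contained it at 30. A single CP190 peak was overlapped at 262 regions and 2 were overlapped at 5. None of the 272 CP190 peaks so touched overlapped a larval Pita or Su(Hw) peak elsewhere along its length, and none was touched by more than 1 of the regions.

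**Figure D2:**
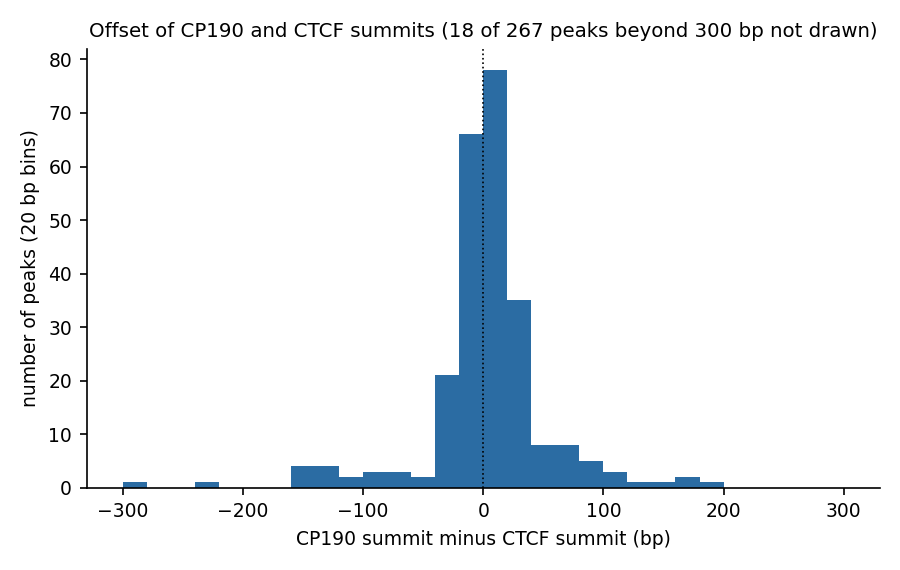
Number of CTCF-only peaks with CP190 by the CP190 summit position minus the CTCF summit position in bp, in bins of 20 bp, with 18 of 267 peaks beyond 300 bp left out. Most peaks fall in the bins next to 0, and 207 of 267 are within 50 bp.

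The 20 regions with summits more than 200 bp apart had a median CTCF fold of 5.69 and a median CP190 fold of 3.92, against 45.7 and 10.1 at the others. Not all of them were low, since CG9095 and RpL37-1 had a CTCF fold of 75.9 and a CP190 fold of 35.5 with summits 317 bp apart, and CG6983, named after its values were seen, had 44.2 and 38.9 with 413 bp. The farthest were at PNUTS, a regulatory subunit of protein phosphatase 1, with 1918 bp, and at mir-282, a microRNA gene, with 1559 bp, both named after their values were seen. With the regions split by CTCF fold into 4 classes of like size, the median summit distance went from 60 bp in the lowest class to 22, 11 and 11 bp. The share with summits within 50 bp went from 49.3% to 77.6%, 90.9% and 92.5%.

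CP190 enrichment at these regions had a median fold of 9.46 (quartiles 4.42 and 22.4, range 2.02 to 66.9). Counted by CP190 peak, as for the classes that follow, the 272 peaks touched by the regions had a median of 9.22. CP190 peaks with Pita alone had a median of 11.2, those with Su(Hw) alone 7.41, those with CTCF and another C2H2 protein 17.9, and those without any of the 3 a median of 3.59. Of the 100 highest CP190 peaks, 15 belonged to the 267 regions, which touched 272 of all 4220 larval CP190 peaks. Across the regions CP190 fold and CTCF fold went together (Pearson r = 0.63 on the log2 scale, Spearman correlation 0.69, n = 267 regions). Both values are enrichments from larvae over controls that are not named, and regions are not replicates. From the lowest to the highest of the same 4 classes, the median CP190 fold was 4.15, 5.09, 15.3 and 23.6. CP190 was therefore low in both lower classes and several-fold higher in both upper ones.

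**Figure D3:**
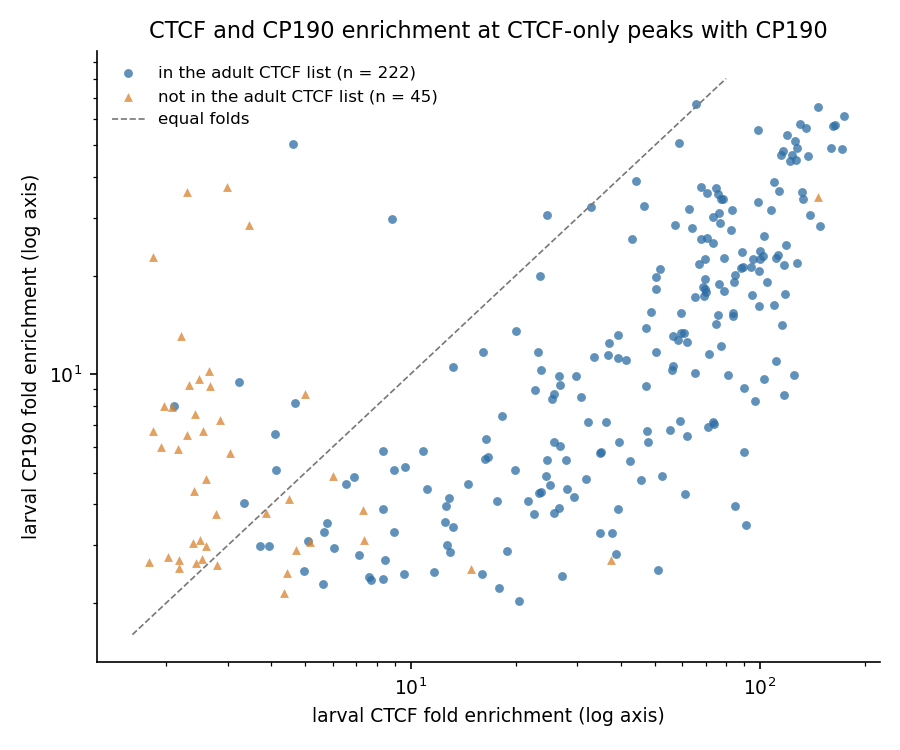
CP190 fold against CTCF fold (both log axes) at the 267 CTCF-only peaks with CP190, with circles for the 222 peaks in the adult CTCF list, triangles for the 45 that are not, and a dashed line where both folds are equal. Peaks above the line at low CTCF fold are mostly triangles.

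The region with the highest CTCF fold, chr2L:3785429-3787442, lay between genes, with the summit 67 bp from an end of the pseudogene CR31958 and an end of bark, which encodes a protein of cell junctions, within 500 bp. Its CTCF fold was 174 with a −log10 p of 12417 in input 1 and 12462 in input 2, its CP190 fold was 61.5, and the adult CTCF fold was 92.8. It was among the 10 highest of the 267 regions for both proteins. The second, chrX:10008684-10011051, had its summit inside CG33557, a predicted gene, near an end of Dna2, a helicase and nuclease of DNA replication. It had a CTCF fold of 172 (−log10 p of 11089 and 11352), a CP190 fold of 48.7 and an adult CTCF fold of 116. The CTCF values of the 2 inputs were close, and the adult values were lower than the larval ones at both regions.

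Further regions of X followed. An intergenic region at chrX:15653088-15654628, 8566 bp from the nearest gene end, had a CTCF fold of 164, a CP190 fold of 57.6 and an adult CTCF fold of 67.3. At Tak1, a kinase of the immune deficiency pathway (chrX:20523943-20525965), both summits fell on the same base. The folds there were 162 for CTCF, 57.3 for CP190 and 63.6 for adult CTCF. These 4 regions and an intergenic one on 2R whose nearest gene is CG44439 (CTCF 160-fold, CP190 49.0-fold, adult CTCF 125-fold) were the 5 highest by CTCF.

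The remaining 5 of the 10 highest CTCF folds included 4 regions on 3R. They lay at CG6345 (149-fold, CP190 28.4-fold), between CheB93a and CheB93b, genes of a chemosensory family (147-fold, CP190 34.8-fold), and near CG14903 and Scp2, a calcium-binding protein (147-fold, CP190 65.3-fold). The last of them lay between CG7785 and DNaseII, a nuclease (137-fold, CP190 46.3-fold), and both its summits fell on the same base. On 2L the region at CG31776 and Pgant4, which encodes an enzyme that adds sugars to mucins, had a CTCF fold of 139 and a CP190 fold of 30.7. Adult CTCF folds were 101, 176, 134 and 150 at CG6345, CG14903, CG7785 and CG31776, so the adult value was higher than the larval one at CG14903 and CG31776. The CheB93a region was not in the adult CTCF list.

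The highest CP190 fold of the 267 regions, 66.9, was at CG10232 on 3R (chr3R:23721616-23722809) and ranked 2 among all CP190 peaks. CTCF was 65.8-fold there, with a −log10 p of 4971 in input 1 and 4840 in input 2, and 82.5-fold in adults. Other high CP190 folds were found at Reg-2 (58.0), at Obp73a and Ogdh (56.3), at eya (55.8), at a threonine tRNA gene with Fntb (54.0) and at Pex7 (51.5). Ogdh is a subunit of the 2-oxoglutarate dehydrogenase of the citric acid cycle, and eya is a gene of eye determination. Fntb is a subunit of protein farnesyltransferase and Pex7 is a receptor for import into peroxisomes. CTCF folds at these 5 regions ran from 98.8 at eya to 135 at Obp73a, so high CP190 went with high CTCF at each.

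A smaller number of the regions had more CP190 than CTCF. The CP190 fold was above the CTCF fold at 42 regions, where the median CTCF fold was 2.52 and the median CP190 fold 6.97. At the other 225 regions these medians were 51.9 and 10.6. A region inside Antp, the Hox gene of the middle thorax, had a CTCF fold of 3.46 (−log10 p of 32.0 and 37.6) and a CP190 fold of 28.6, with summits 8 bp apart. At betaTub60D, a beta-tubulin gene, and Camta, a calmodulin-binding transcription activator, CTCF was 4.61-fold and 2.99-fold and CP190 50.4-fold and 37.2-fold. These 2 genes were named after their values were seen. Such regions were narrow in the CTCF list, with a median width of 432.5 bp against 1429 bp for the 225 others. The control behind each fold is not named, so the line of equal folds is a description and not a measure of relative occupancy.

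The 5 lowest CTCF folds were 1.97 at Mic26-27, a mitochondrial inner membrane protein, 1.93 at CG7907, 1.84 at Phyhd1, 1.83 between Asx and Cpsf160, and 1.78 inside Gug. Asx is a Polycomb group gene, Cpsf160 a subunit of the complex that cleaves pre-mRNA at the poly(A) site, and Gug an atrophin family corepressor. Their −log10 p ran from 5.95 to 9.45 in input 1 and from 6.57 to 10.3 in input 2, and none was in the adult CTCF list. CP190 at these regions was 7.99-fold, 6.01-fold, 22.8-fold, 6.69-fold and 2.67-fold, higher than CTCF at all 5. The CG7907 region lay 719 bp from the strong CheB93a region, the closest pair among the 267.

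At the edge of the rule for CP190 the CTCF folds were low. The smallest overlaps with a CP190 peak were 127 bp at Gug, 210 bp near l(2)34Fd (CTCF 2.03-fold) and 224 bp near CG17450 (5.08-fold). The CTCF-only peaks that came closest to a CP190 peak without touching it were 134 bp away near CG9485 (5.85-fold), 217 bp away near the gene a (2.60-fold) and 225 bp away near CG32425 (2.89-fold). A larval Pita or Su(Hw) peak lay within 1000 bp of 13 regions. It was nearest, at 131 bp, to the region near numb (4.12-fold), which encodes an inhibitor of Notch. The next, at 148 bp, was the strong region at Reg-2, with a CTCF fold of 131 and a CP190 fold of 58.0, so this edge held a high value. The median distance to a larval peak was 30721 bp for Pita and 17423 bp for Su(Hw).

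Presence in adults was the first property that the rule had not used. Of the 267 regions 222 overlapped a peak of the adult CTCF list (83.1%, exact 95% interval 78.1% to 87.4%), against 158 of the 260 CTCF-only peaks without CP190 (60.8%, 54.5% to 66.7%) and 69.4% of all larval CTCF peaks. The odds ratio was 3.18 (95% interval 2.12 to 4.78, two-sided exact test by Fisher, p = 3.37e-08 after Benjamini-Hochberg adjustment for 8 tests). Intervals cover counting error only. Larval CTCF fold differed strongly between the classes, and within quartiles of CTCF fold the Mantel-Haenszel odds ratio turned to 0.507 (0.278 to 0.922, stratified exact test, adjusted p = 0.0343). In the lowest quartile, with folds up to 2.82, an adult peak was found at 1 of 29 regions with CP190 and 38 of 104 peaks without it. In the next it was found at 15 of 27 and 74 of 104. In the upper quartiles the counts were 85 of 89 against 37 of 42, and 121 of 122 against 9 of 10, and the last class without CP190 is small. The share was thus lower with CP190 in both lower quartiles and higher in both upper ones, so the common odds ratio joins opposite directions. Most regions with CP190 were in the upper quartiles, where the shares were high in both classes. In the stronger part of each list, kept by a −log10 q no lower than that list's median, the odds ratio was 7.08 (Fisher exact adjusted p = 1.30e-10).

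**Figure D4:**
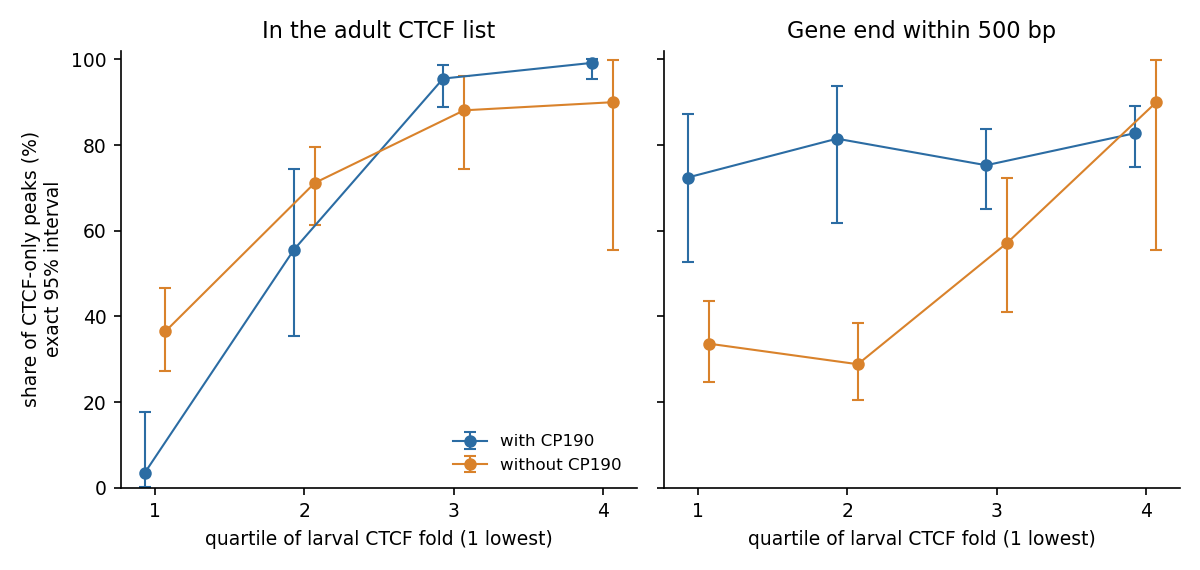
Share of CTCF-only peaks, in percent with exact 95% intervals, that are in the adult CTCF list (left) or have a gene end within 500 bp (right), by quartile of larval CTCF fold and by CP190. On the left the peaks with CP190 start at 3.45% in quartile 1 and reach 99.2% in quartile 4, and on the right they stay between 72.4% and 82.8%. On the right the peaks without CP190 are at 33.7% in quartile 1 and at 90% in quartile 4, where there are 10 of them.

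Where an adult peak was present, it marked the same position. The adult summit lay within 50 bp of the larval one at 221 of 222 regions. Larval and adult CTCF folds went together (Pearson r = 0.90 on the log2 scale, Spearman correlation 0.91, n = 222 regions, which share the tagged protein and antibody). The ratio of adult to larval fold had a median of 0.793 and ran from 0.157 to 3.47, and it was above 1 at 59 regions. At EcR the fold was 56.3 in larvae and 8.98 in adults, and in a region inside Eip75B it was 16.1 and 30.4. The 2 lists were normalised apart, so these ratios are set across lists and are not tested.

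Most of the 45 regions absent from the adult list were weak. Their median CTCF fold was 2.60 against 53.9 for the 222 in the list, 38 of the 45 were under 5-fold, and at 32 the CP190 fold was above the CTCF fold. The exception at the top was the region between CheB93a and CheB93b at 147-fold (chr3R:21407832-21408999), with a −log10 p of 9735 in input 1 and 9934 in input 2. The next highest were an intergenic region nearest to lncRNA:CR44945 (37.5-fold), one inside CG32264 (14.9-fold), one at Tsen15 and Pkn (7.38-fold) and one inside Flo2 (7.33-fold). Tsen15 belongs to the tRNA splicing endonuclease and Flo2 is a flotillin of membrane rafts. CP190 at these 4 was between 2.54-fold and 3.85-fold, lower than the 34.8-fold at CheB93a.

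The regions were in the adult CTCF list more often than CTCF peaks that had CP190 and another C2H2 protein. The shares were 222 of 267 and 140 of 216 (64.8%, exact 95% interval 58.0% to 71.2%), an odds ratio of 2.68 (1.75 to 4.10, two-sided Fisher exact test, adjusted p = 9.70e-06). Within quartiles of CTCF fold over both classes, an alternative chosen after seeing the data, it was 2.18 (stratified exact test, adjusted p = 0.0250).

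The lists end at different IDR (irreproducible discovery rate) values, with peaks up to 0.05 for larval Pita and 0.0499 for adult Su(Hw) and up to 0.01 for the others, so presence and absence across stages are not called alike. With every list held to 0.01, chosen after seeing the data, there were 268 regions, of which 38 had adult Pita and 6 adult Su(Hw). A larval Pita peak was excluded by the rule, but an adult Pita peak was found at 37 of the 267 regions (13.9%, exact 95% interval 9.95% to 18.6%). It was found at 27.8% of all larval CTCF peaks, but these include peaks with larval Pita or Su(Hw), which the rule left out of the regions. It was found at 9 of the 260 CTCF-only peaks without CP190 (3.46%, 1.59% to 6.47%). The odds ratio was 4.49 (2.12 to 9.5, two-sided Fisher exact test, adjusted p = 3.15e-05). The call was lost within quartiles of CTCF fold, with 2.02 (stratified exact test, adjusted p = 0.0998), and in the stronger part of each list, kept by a −log10 q no lower than that list's median, with 1.51 (Fisher exact adjusted p = 0.665). Adult Pita was mostly weak there, with a median fold of 4.41 and a range of 2.0 to 31.6, and its summit lay within 200 bp of the CTCF summit at 27 of the 37. An adult CTCF peak accompanied it at 35 of the 37.

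The highest adult Pita folds at named regions were 31.6 at Reg-2 (CTCF 131-fold), a gene of rhythmic expression, 24.8 in the Eip75B region with a CTCF fold of 16.1, and 17.2 at Sid (CTCF 133-fold). At Reg-2 the nearest larval Pita peak was 148 bp from the CTCF peak, so the choice of this region by the rule rests on a peak edge. The adult Pita summit lay 26 bp from the CTCF summit and inside the CTCF peak, and so outside that larval Pita peak. Over the 37 regions the median distance to a larval Pita peak was 28662 bp. Adult Pita was 2.71-fold at CG31776, 2.81-fold inside CG43658 (CTCF 127-fold) and 5.20-fold at Obp73a, where its summit was 895 bp from that of CTCF.

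Adult Su(Hw) was found at 12.7% of all larval CTCF peaks, which again include those with larval Pita or Su(Hw) that the rule left out. It was found at 6 of the 267 regions (2.25%, exact 95% interval 0.829% to 4.83%) and at 1 of the 260 CTCF-only peaks without CP190 (0.385%, 0.00974% to 2.12%). The odds ratio of 5.95 had an interval of 0.712 to 49.8 and did not pass (two-sided Fisher exact test, adjusted p = 0.123). The folds of adult Su(Hw) ran from 3.71 to 8.04, the highest at eya. None of the regions had both adult Pita and adult Su(Hw).

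The regions lay close to genes. An end of a gene was within 500 bp of the peak at 211 of 267 regions (79.0%, exact 95% interval 73.6% to 83.8%), against 98 of the 260 CTCF-only peaks without CP190 (37.7%, 31.8% to 43.9%) and 60.9% of all larval CTCF peaks. The odds ratio was 6.23 (4.23 to 9.17, two-sided Fisher exact test, adjusted p = 2.01e-21). Within quartiles of CTCF fold it was 3.82 (stratified exact test, adjusted p = 7.66e-08). In the lowest quartile a gene end was near 21 of 29 peaks with CP190 and 35 of 104 without. In the next the counts were 22 of 27 against 30 of 104. In the upper quartiles they were 67 of 89 against 24 of 42, and 101 of 122 against 9 of 10. The share was thus not higher with CP190 in the top quartile, where the class without it is small. In the stronger part of each list the odds ratio was 2.07 (Fisher exact adjusted p = 0.0243). Wide peaks reach more gene ends, and within quartiles of peak width, chosen after seeing the data, it was 2.99 (stratified exact test, adjusted p = 9.70e-06). All larval CP190 peaks had a gene end within 500 bp in 76.3% of cases, close to the share at the 267 regions.

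**Figure D5:**
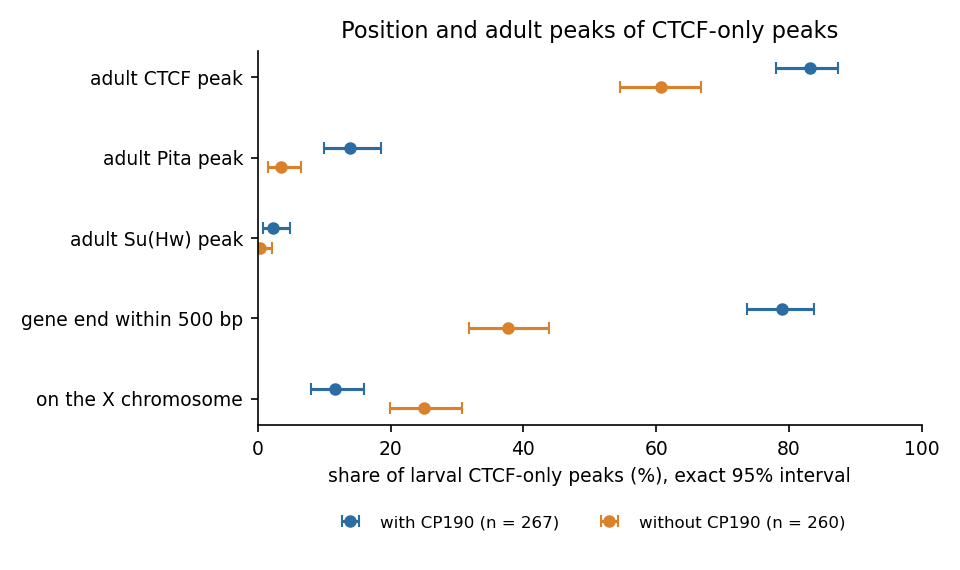
Share in percent, with exact 95% intervals, of the 267 CTCF-only peaks with CP190 and the 260 without it that have an adult CTCF, Pita or Su(Hw) peak, have a gene end within 500 bp, or are on the X chromosome. Gene ends give the widest gap, 79.0% against 37.7%.

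The share near a gene end was somewhat lower than at Pita-only peaks with CP190 and well above that at Su(Hw)-only peaks with CP190. A gene end was within 500 bp at 515 of 596 Pita-only peaks with CP190 (86.4%, exact 95% interval 83.4% to 89.1%) and at 499 of 1009 Su(Hw)-only peaks with CP190 (49.5%, 46.3% to 52.6%). The odds ratio of the CTCF regions was 0.593 against Pita (0.407 to 0.863, two-sided Fisher exact test, adjusted p = 0.00980) and 3.85 against Su(Hw) (2.80 to 5.30, adjusted p = 2.92e-18). The difference from Pita did not pass in the stronger part of each list (0.642, Fisher exact adjusted p = 0.106).

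The summit fell between genes at 172 of the 267 regions (64.4%), inside 1 gene at 86 and inside 2 or more at 9. At the CTCF-only peaks without CP190 it fell between genes at 89 of 260 (34.2%). Ends of 2 or more genes lay within 500 bp at 141 regions (52.8%), against 43 of the 260 (16.5%). The nearest gene was protein-coding at 230 regions and a long non-coding RNA at 22. The largest number of genes with ends at a region was 5. One such region (CTCF 51.9-fold, CP190 21.0-fold) held ends of REPTOR, a transcription factor of the TORC1 pathway, Esyt2, an extended synaptotagmin, and 3 genes of U6 spliceosomal RNA. Another (65.4-fold, CP190 17.2-fold) held Pdi, a protein disulfide isomerase, and Pex3, a peroxisome biogenesis factor. Both regions were named after their values were seen. The gene table gives spans without strand or exons, so a start of a gene could not be told apart from its end, nor an exon from an intron.

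At the 56 regions without a gene end within 500 bp, median folds were 25.8 for CTCF and 7.31 for CP190, against 42.4 and 9.88 at the 211 others. The strongest were the intergenic regions of X and of 2R described above, one inside Eip75B and one inside CG43658, whose summit was 29164 bp from a gene end.

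Of the protein-coding genes in the table, 2.83% had one of the regions at an end or a summit inside, as did 2.5% of all genes. Among ecdysone response genes 3 of 13 did, with 6 regions of median CTCF fold 19.6. Eip75B, a nuclear receptor gene induced by the moulting hormone, held 4 of them, with CTCF folds of 127 (CP190 49.2-fold), 16.1 (CP190 11.7-fold), 2.66 (CP190 9.20-fold) and 2.17 (CP190 2.70-fold). The pair of weak ones was not in the adult CTCF list. EcR, the ecdysone receptor, had a CTCF fold of 56.3 and a CP190 fold of 13.1. A region at ftz-f1, a nuclear receptor of metamorphosis, had a CTCF fold of 23.2 and a CP190 fold of 11.7. Genes of this list are long, with a median span of 50703 bp against 2161 bp over all protein-coding genes, and a long gene holds more summits.

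Hox complex genes had 2 of 11, namely the Antp region described above and one inside Abd-B, the Hox gene of the posterior abdomen (CTCF 5.60-fold, CP190 2.28-fold, adult CTCF 5.33-fold). In Abd-B the summits were 529 bp apart. Both were far below the median CTCF fold of 38.8 over the 267 regions. Hox complex genes too are long, with a median span of 22836 bp against 2161 bp over all protein-coding genes. Both regions had their summits inside the genes, and CTCF-only peaks without CP190 were likewise found at 2 of the 11. Cytoplasmic ribosomal protein genes had 3 of 92, close to the share of all genes. They were RpL37-1 (CTCF 75.9-fold, CP190 35.5-fold), RpS19a (26.6-fold, CP190 9.88-fold), and RpLP1 (7.11-fold, CP190 2.80-fold).

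Polycomb and trithorax group genes had 1 of 21, Asx. Transfer RNA genes had 2 of 290, which is 0.69%, namely the threonine gene named above and an asparagine tRNA gene inside EcR. None of the regions was at the 17 insulator protein genes, 12 gap and pair-rule genes, 14 segment polarity genes, 8 Notch pathway genes, 10 nicotinic receptor genes, 18 neuronal channel and synapse genes or 48 proteasome genes examined. At a share of 2.83% a list of this size holds few such genes or none, so these counts are descriptions. The lists were chosen with earlier results of these data known.

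The regions were spread over the arms, with 53 on 2L, 49 on 2R, 68 on 3L, 64 on 3R, 31 on X, 2 on chromosome 4 and none on Y. X held 11.6% of them (exact 95% interval 8.03% to 16.1%), against 65 of the 260 CTCF-only peaks without CP190 (25.0%, 19.9% to 30.7%). All larval CTCF peaks had 20.2% on X and all larval CP190 peaks 17.7%. The odds ratio was 0.394 (0.247 to 0.629, two-sided Fisher exact test, adjusted p = 9.55e-05) and 0.271 within quartiles of CTCF fold (stratified exact test, adjusted p = 8.70e-05). In the stronger part of each list it was 0.901 and did not pass (Fisher exact adjusted p = 0.847). The 31 regions on X had a median CTCF fold of 58.7 and a median CP190 fold of 13.1, against 35.7 and 9.0 on the other chromosomes.

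Neighbouring CTCF peaks were usually far away. The next larval CTCF peak of any class lay a median of 44279 bp from a region, with 210 bp as the shortest distance and 508773 bp as the longest. It was within 10000 bp at 56 regions, and there it was another of the 267 at 24, a CTCF-only peak without CP190 at 16, and a CTCF peak with Pita or Su(Hw) at the rest. The 210 bp pair, named after its values were seen, lay near CG34205, where the region had a CTCF fold of 18.3 and a CP190 fold of 7.46.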

How the data were processed

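Per the submitters' processing notes dm6 was the build, and MACS2, Bowtie2, deepTools, cutadapt, bedtools and Picard are named as tools, with roles and versions not given in the sources used here. The authors deposited 7 peak lists with 20 columns in the layout of an IDR (irreproducible discovery rate) comparison of 2 input lists. The deposited values used are a fold, that is a linear ratio whose control is not given, a −log10 p for each input and a −log10 q. The global IDR, deposited as a −log10 score, was used for 1 alternative. In every list the deposited peak is that of input 1. Depth per sample is unknown, and replicates could not be left out or paired.

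Groups were taken from sample titles. Peaks overlapping by at least 1 bp were called shared. A gene end within 500 bp was measured from the peak edge, with 17807 genes of the RefSeq table of Release 6 plus ISO1 MT, of which 13946 are protein-coding. 3 genes of the lists were not found in it by symbol and are not analysed here. Where a region overlapped 2 CP190 peaks, the higher fold was used. Shares have Clopper-Pearson 95% intervals, odds ratios Woolf or, within quartiles, Mantel-Haenszel ones with an exact conditional p over strata (put in place of an approximate p after seeing the data, with no call changed), and Benjamini-Hochberg adjustment over 8 tests had a threshold of 0.05. Values of fold were not tested, since the larval lists chose the regions. Python 3.11.15, pandas 2.3.3, scipy 1.17.1 and statsmodels 0.14.6 were used, and overlaps and odds ratios were tested on simulated data.

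Named are the 10 regions highest in CTCF and in CP190 fold, the 5 lowest in CTCF, the 5 strongest without adult CTCF, the 5 strongest with adult Pita or Su(Hw), and up to 4 per gene list; others are marked. The regions, lists and tests were chosen with earlier results of these data known. No sequence of the regions was used here, and the planned search for a CTCF word in promoters was not run.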

Additional observations from a re-analysis of the deposited data

How the results depend on the processing

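Of 67 alternative values, 61 kept their direction and their side of the threshold, counts of regions included. Odds ratios turned for the adult CTCF peak with against without CP190 within quartiles of CTCF fold (0.507, past the threshold in both directions) and for adult Su(Hw) in lists kept down to their median −log10 q (0.974, never past the threshold). The cause was not tested. These stricter lists also ended the calls for adult Pita (1.51), for gene ends against Pita-only peaks (0.642) and for X (0.901), with fewer peaks tested, and quartiles of CTCF fold ended the call for adult Pita (2.02). Over all alternatives the odds ratio for adult CTCF ran from 0.507 to 7.08 (adjusted p from 1.30e-10 to 0.0343), for adult Pita from 1.51 to 6.15 (9.73e-06 to 0.665), for adult Su(Hw) from 0.974 to 6.05 (0.123 to 1), for X from 0.271 to 0.901 (4.38e-05 to 0.847), by Fisher or stratified exact tests. For gene ends it ran from 2.07 to 6.84 against CTCF-only peaks without CP190 (2.64e-24 to 0.0243), from 0.506 to 0.668 against Pita-only peaks (8.78e-05 to 0.106) and from 3.31 to 4.26 against Su(Hw)-only peaks. The number of regions was 269 with an overlap covering 0.5 of the shorter peak or more, 273 with summits within 200 bp, 254 with no larval Pita or Su(Hw) peak within 1000 bp, 268 with every list held to an IDR of 0.01, where no call changed, and 195 in the stricter lists. With summits within 200 bp adult Su(Hw) gave no odds ratio, since a class held no such peak. Distances measured from the summit, both added stratifications and the IDR limit were chosen after seeing the data. No paired analysis was possible because the lists carry no sample or replicate values. The search for the CTCF word could not be run. Peak lists give no signal outside peaks, so absence from a list is not absence of binding.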
